A study of Mus musculus with 8 samples.

Results

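The 37 transcripts described here mark the endothelium of the liver. They comprise genes of the sinusoidal endothelium, of blood vessel endothelium in general and of large vessels that are not part of Kupffer cell identity, and they were picked by gene symbol from a table of 56691 genes. All 37 symbols were found. RNA was sequenced in bulk from Kupffer cells, which are the macrophages resident in liver sinusoids, sorted as living CD45+ Tim-4+ cells 7 days after mice had been injected with B16F10 cells, a mouse melanoma line. The mutant mice lacked Vsig4, a complement receptor of macrophages (VSIG4 KO, written Vsig4-/- in the protocol; 4 libraries), and the others were wild type (WT; 4 libraries). Both genotypes carried melanoma metastases in the liver, so no tumour-free liver enters the comparison. The allele of the KO, the age and sex of the mice and the number of animals behind a library are not stated in the labels. The p-values therefore refer to variation among the libraries at hand, some of which could be technical.

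Sinusoidal endothelial cells line the capillaries of the liver. They are perforated by open pores, lack a continuous basement membrane, and clear macromolecules from the blood through scavenger receptors such as stabilin-2. Kupffer cells sit on this lining and reach through it, and signals from it, among them BMP and Notch ligands, are known to shape Kupffer cells. Endothelial cells of arteries and veins instead make von Willebrand factor and tight junctions.

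Library totals ran from 16994406 to 19513844 counts in KO and from 15264043 to 19445494 counts in WT. Vsig4 had 2 to 9 counts in the KO libraries and 22498 to 46735 counts in the WT libraries, and it was the only one of 15870 tested genes called in the comparison (0.00630% of tested genes; log2 fold change -12.89 ± 0.531 SE, edgeR adjusted p = 5.35e-05). RNA of other cells was present and uneven. The summed level of 10 melanoma genes was 2610, 3732, 12894 and 6721 CPM (counts after scaling for library size) in KO 1 to 4, against 582, 515, 5759 and 4940 CPM in WT 1 to 4. Each of the 10 had counts. The sum of 13 Kupffer identity genes was 24153, 24192, 7894 and 18582 CPM in KO 1 to 4, against 34604, 34313, 20046 and 22632 CPM in WT 1 to 4. KO 3 therefore had the most melanoma RNA and the least Kupffer RNA of the 8 libraries, and WT 1 and WT 2 had the least melanoma RNA.

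The sorted cells carried much more of some endothelial transcripts than of others. Per length, in FPKM (fragments scaled by exon length and library size), 3 members averaged at least 10 over the 8 libraries, 17 averaged at least 1, and 2, Wnt9b and Cyyr1, averaged under 0.1. The 3 most abundant were Stab2, the hyaluronan scavenger receptor stabilin-2, at 29.4 FPKM, Pecam1, an adhesion molecule of endothelium that leukocytes also carry, at 19.9 FPKM, and Dnase1l3, a secreted nuclease that digests chromatin, at 13.7 FPKM. Clec4g, the sinusoidal lectin LSECtin, averaged 4.29 FPKM, and Kdr, the main VEGF receptor, averaged 1.49 FPKM. Clec4f, the galactose-binding lectin by which mouse Kupffer cells are recognised, averaged 2801 FPKM. The large-vessel genes Vwf and Emcn averaged 0.174 and 0.111 FPKM, and Plvap, the diaphragm protein of fenestrae and caveolae, averaged 4.68 FPKM. Some defining transcripts of sinusoidal endothelium were thus measurable in each library, while Wnt9b, a sinusoidal Wnt ligand of the central zone, had 0 counts in KO 3, KO 4 and WT 4. A count of 0 allows up to 3 counts, which is 0.154 to 0.197 CPM in these libraries, counting error only.

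The 37 transcripts did not vary as a single set over the libraries. Correlations in this paragraph are Pearson's r of log2 CPM over the 8 libraries, given as a description, and all CPM values of a library share its total. Of the other 36 members, 21 had an r of at least 0.8 with Clec4g, against 6.91% of all tested genes. With Clec4f, 15 members reached that r, against 21.7% of all tested genes. By signed r, 25 of the 36 had the higher value with Clec4g and 11 with Clec4f, and 7 members had a negative r with Clec4f. The 25 include Eng, Tspan7, Ramp2 and Ehd3, and the 11 include Vwf and Rspo3, all with a negative r with both lectins. A large subset moved with Clec4g, but most members with an r of at least 0.8 with Clec4f also reached it with Clec4g. The lectins themselves had an r of 0.73, so the courses overlap. The most abundant members, Stab2, Pecam1 and Dnase1l3, reached 0.8 with the Kupffer lectin only. Clec4g as a point of comparison, and the members Vwf, Lyve1, Gpr182, Robo4, Tspan7, Ramp2 and Emcn as genes to name, were chosen after their values had been seen.

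**Figure D1:**
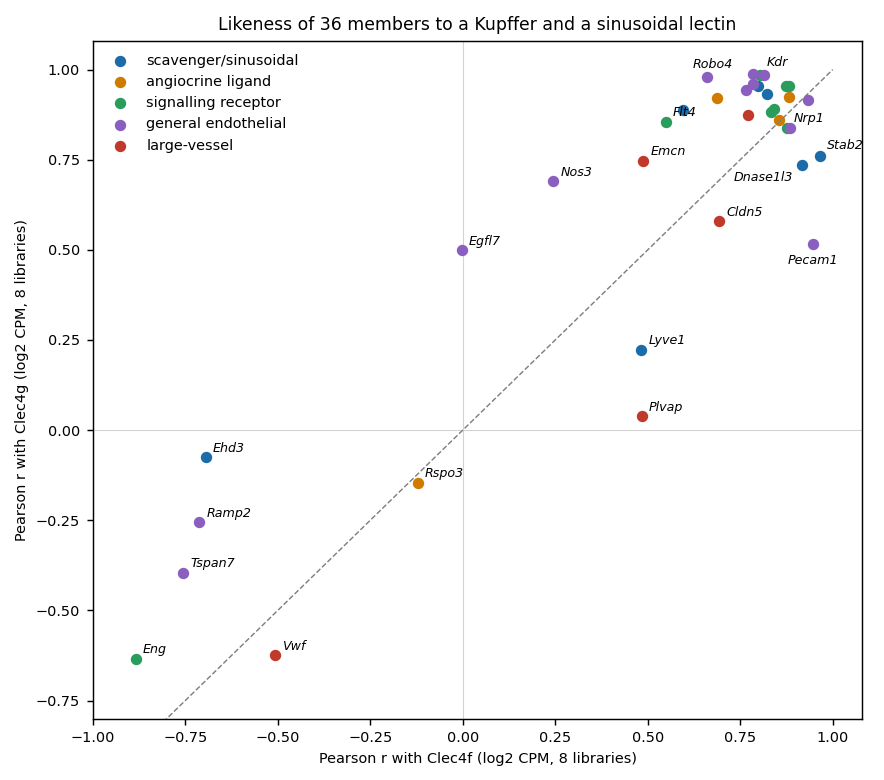
Pearson r of each member with Clec4f (x axis) and with Clec4g (y axis), from log2 CPM over 8 libraries. Each point is 1 of 36 members, coloured by role group, and the dashed line marks equal r. Most points crowd at the upper right above the line, while Stab2, Dnase1l3 and Pecam1 lie below it and Eng, Tspan7, Ramp2, Ehd3, Rspo3 and Vwf lie at negative r on both axes.

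Regulatory sequence just upstream of the start is shown for members of both patterns, as many endothelial promoters are known to bind ETS transcription factors. RefSeq windows (GRCm38.p6) were found for 21 of 37 members, 23 windows in all, and the 250 bases before the start were searched on both strands for AGGAAG, an ETS core, which reads CTTCCT on the other strand. The letters were present in 13 of the 23 windows, or 56.5%, against 29.5% of all 32851 windows, and 12 members had them. Kdr, Tek, Clec14a, Wnt2, Wnt9b and Flt4, which also moved with Clec4g, had 0 matches, so the windows printed for that course do not stand for all of its members. The windows are those of Clec4g (chr8:3720652-3720901, minus strand), Robo4 (chr9:37401722-37401971, plus strand) and Tie1 (chr4:118489850-118490099, minus strand), which moved with Clec4g, then Stab2 (chr10:87007943-87008192, minus strand) and Clec4f (chr6:83656117-83656366, minus strand). Each runs 5′ to 3′ along the gene's own strand, and capitals mark the searched letters.
Clec4g: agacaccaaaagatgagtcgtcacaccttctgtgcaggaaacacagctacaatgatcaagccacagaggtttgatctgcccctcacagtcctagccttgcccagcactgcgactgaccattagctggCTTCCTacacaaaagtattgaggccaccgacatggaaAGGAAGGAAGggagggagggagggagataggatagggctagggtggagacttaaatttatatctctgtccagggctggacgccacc
Robo4: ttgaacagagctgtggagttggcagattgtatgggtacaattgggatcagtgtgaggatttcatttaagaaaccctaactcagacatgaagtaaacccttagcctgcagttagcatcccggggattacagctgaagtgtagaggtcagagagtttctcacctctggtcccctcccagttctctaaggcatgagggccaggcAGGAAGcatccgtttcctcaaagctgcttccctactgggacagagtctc
Tie1: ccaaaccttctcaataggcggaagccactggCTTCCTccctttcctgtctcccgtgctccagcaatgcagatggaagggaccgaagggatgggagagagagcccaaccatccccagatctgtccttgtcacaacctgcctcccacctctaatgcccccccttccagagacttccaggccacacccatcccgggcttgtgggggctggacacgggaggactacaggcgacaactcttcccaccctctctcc
Stab2: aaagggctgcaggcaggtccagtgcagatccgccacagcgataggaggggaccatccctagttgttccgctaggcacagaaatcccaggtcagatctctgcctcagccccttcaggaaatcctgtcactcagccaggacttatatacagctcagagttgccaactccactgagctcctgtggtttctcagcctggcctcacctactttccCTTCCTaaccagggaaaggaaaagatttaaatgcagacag
Clec4f: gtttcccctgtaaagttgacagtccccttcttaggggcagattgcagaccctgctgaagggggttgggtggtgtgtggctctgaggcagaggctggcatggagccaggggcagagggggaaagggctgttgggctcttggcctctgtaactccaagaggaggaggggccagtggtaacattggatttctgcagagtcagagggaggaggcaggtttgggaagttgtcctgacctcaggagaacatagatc
The Clec4g window held 3 matches, of which a pair overlapped. Robo4, Tie1 and Stab2 had 1 match each, and the Clec4f window had 0. A match is a run of letters in this window and shows no binding.

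Among the scavenger receptors and enzymes of the sinusoid, Clec4g had a course that Oit3 and Gpr182 shared. Clec4g had 13.1, 9.34, 3.87 and 2.47 CPM in KO 1 to 4, against 31.9, 15.8, 7.55 and 3.79 CPM in WT 1 to 4. In both genotypes libraries 1 and 2 were above libraries 3 and 4, the genotypes overlapped, and the highest library was 12.9-fold above the lowest. Oit3, a secreted protein used as a marker of mouse sinusoidal endothelium, had 7.40, 5.51, 1.44 and 0.944 CPM in KO, against 23.9, 8.37, 2.72 and 3.41 CPM in WT, and its r with Clec4g was 0.955. Gpr182, an atypical chemokine receptor of sinusoids, had 7.40, 6.68, 2.21 and 3.15 CPM in KO, against 13.4, 7.64, 6.93 and 3.02 CPM in WT. Gpr182 overlaps Zbtb39 on the opposite strand, a gene with 3070 counts, and the strand setting of the counting is not given in the sources used here, so its level is uncertain. Gata4, the transcription factor that specifies sinusoidal endothelium, was low in every library, with 3 to 33 counts in KO and 19 to 54 counts in WT.

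Stab2 and Dnase1l3 belong to the same role group and followed Clec4f. Stab2 had 304, 295, 96.5 and 211 CPM in KO 1 to 4, against 401, 366, 207 and 215 CPM in WT 1 to 4. KO 3 was far below the rest, while KO 1 and KO 2 were above WT 3 and WT 4, so the genotypes overlapped. Its r was 0.965 with Clec4f and 0.761 with Clec4g. Dnase1l3 had 82.3, 53.4, 27.9 and 38.7 CPM in KO, against 95.4, 132, 72.3 and 75.3 CPM in WT, with an r of 0.917 with Clec4f and 0.736 with Clec4g. Only KO 1 reached into the WT range. Lyve1, a hyaluronan receptor of sinusoidal and lymphatic endothelium that some macrophages share, followed neither lectin closely (r 0.482 with Clec4f and 0.223 with Clec4g), and its highest library was KO 2 at 35.9 CPM. Ehd3, an ATPase of endocytic recycling, ran the other way: it had 48.4, 49.0, 76.4 and 44.0 CPM in KO, against 55.0, 38.2, 48.8 and 41.9 CPM in WT, with KO 3 highest.

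**Figure D2:**
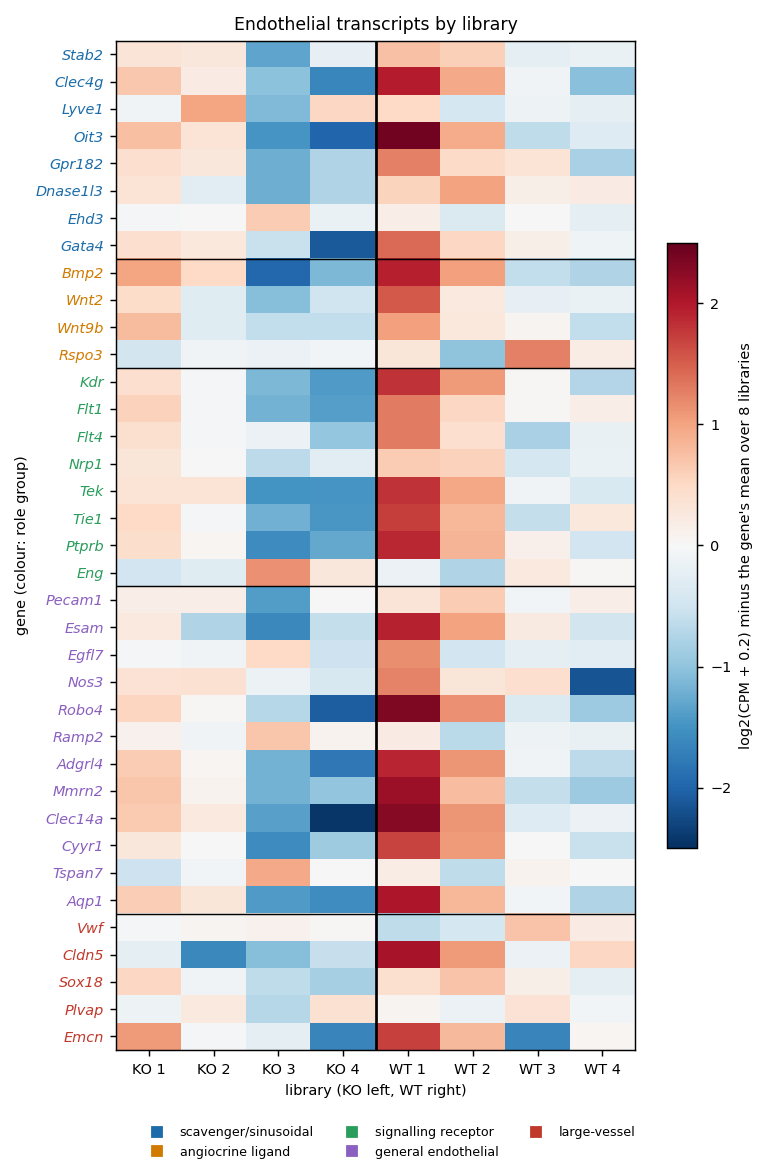
Level of each of the 37 members in each library, as log2(CPM + 0.2) minus the member's mean over the 8 libraries, KO on the left and WT on the right, members grouped by role. Red in WT 1 and blue in KO 3 and KO 4 run through most rows, and Eng, Ehd3, Ramp2 and Tspan7 show the opposite colour in KO 3.

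The angiocrine ligands, by which the endothelium acts on hepatocytes and other neighbours, were scarce. Bmp2, the sinusoidal signal that sets hepcidin in hepatocytes, had 9.07, 6.33, 0.9958 and 1.94 CPM in KO 1 to 4, against 17.6, 9.21, 2.85 and 2.57 CPM in WT 1 to 4. Libraries 1 and 2 were again above 3 and 4 in both genotypes, and the r with Clec4g was 0.925. Wnt2, a Wnt ligand of sinusoids near the central vein, had 4 to 18 counts in KO and 9 to 33 counts in WT. Rspo3, which amplifies Wnt signals from the central vein, differed in course: it had 12 to 18 counts in KO and 7 to 43 counts in WT, with WT 3 highest and an r of -0.146 with Clec4g.

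Most genes of the receptor group moved with Clec4g, Kdr most closely (r 0.985). Kdr had 14.5, 10.4, 4.81 and 3.88 CPM in KO 1 to 4, against 38.0, 22.7, 10.9 and 6.43 CPM in WT 1 to 4. Flt1, a second VEGF receptor, had 6.79, 4.34, 1.88 and 1.63 CPM in KO, against 11.5, 6.57, 4.64 and 5.08 CPM in WT. Ptprb, the phosphatase that restrains the Tie2 receptor, had 16.5, 12.7, 3.98 and 4.88 CPM in KO, against 45.8, 22.1, 13.3 and 8.68 CPM in WT. In all 3, KO was lower than WT at every replicate number and the genotypes overlapped as whole groups. The ratio of Clec4g to Kdr was nearly constant, with an SD of 0.226 on the log2 scale over the 8 libraries, while that of Clec4g to Clec4f had an SD of 0.851. Tek, the angiopoietin receptor Tie2, had 12 to 57 counts in KO and 26 to 117 counts in WT, and Tie1, its partner receptor, had 10 to 47 counts in KO and 18 to 90 counts in WT. Nrp1, a VEGF co-receptor that macrophages also express, was more abundant and flatter, with 71.8, 58.0, 36.9 and 48.5 CPM in KO, against 90.0, 87.1, 43.1 and 51.7 CPM in WT.

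Eng, the co-receptor endoglin of the TGF-beta family, was the exception in that group. It had 24.1, 27.4, 74.4 and 41.0 CPM in KO 1 to 4, against 30.5, 20.0, 39.8 and 34.6 CPM in WT 1 to 4. KO 3 stood well above the other libraries. Its r was -0.884 with Clec4f, -0.634 with Clec4g and 0.776 with the melanoma sum, whose part in this course was not tested. A positive r with the melanoma sum was seen in 6 members, Eng, Ehd3, Ramp2, Tspan7, Rspo3 and Vwf. Tspan7, a tetraspanin, had 7.68, 10.7, 21.5 and 11.2 CPM in KO, against 12.7, 7.13, 11.8 and 10.99 CPM in WT, and Ramp2, the accessory subunit of the adrenomedullin receptor, was likewise highest in KO 3. Eng overlaps Fpgs (1524 counts) and Ramp2 overlaps Vps25 (423 counts), which leaves their counts uncertain.

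General endothelial genes split between the same courses. Aqp1, a water channel, had 16.8, 13.4, 3.98 and 3.57 CPM in KO 1 to 4, against 45.1, 19.6, 10.3 and 6.43 CPM in WT 1 to 4, and its log2 ratio to Clec4g had an SD of 0.204. Adgrl4, an adhesion receptor of endothelial cells, had 4.23, 2.76, 1.05 and 0.630 CPM in KO, against 10.5, 5.95, 2.48 and 1.61 CPM in WT. The r with Clec4g was 0.987 for Adgrl4, 0.986 for Aqp1 and 0.979 for Robo4, a guidance receptor of endothelium with 4 to 41 counts in KO and 11 to 118 counts in WT. Clec14a, an endothelial lectin-like protein, had 6 to 75 counts in KO and 33 to 186 counts in WT, and Esam, an adhesion molecule of endothelial junctions, had 8 to 38 counts in KO and 19 to 102 counts in WT. Pecam1 instead had 132, 133, 44.8 and 119 CPM in KO, against 147, 183, 113 and 132 CPM in WT, with KO 3 far below the rest. Its r was 0.947 with Clec4f and 0.515 with Clec4g. Egfl7, a secreted endothelial matrix protein, had 6.34, 6.17, 9.40 and 4.57 CPM in KO, against 14.95, 4.66, 5.51 and 5.46 CPM in WT, so WT 1 was highest. Egfl7 overlaps Agpat2 (1185 counts), which makes this level uncertain.

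Large-vessel genes had no common course. Their r with Clec4g was 0.874 for Sox18, 0.747 for Emcn and 0.579 for Cldn5, but 0.0384 for Plvap and -0.625 for Vwf. Vwf, von Willebrand factor, had 2.56, 2.81, 2.88 and 2.73 CPM in KO 1 to 4, against 1.64, 1.91, 4.46 and 3.08 CPM in WT 1 to 4. Plvap had 8.29, 10.8, 5.48 and 11.9 CPM in KO, against 9.54, 8.1998, 11.6 and 8.61 CPM in WT. Both genotypes overlapped for Vwf and Plvap, and Plvap overlaps Gtpbp3 on the opposite strand (2224 counts), so its counts are uncertain. Sox18, a transcription factor of endothelial cells, had 6 to 20 counts in KO and 9 to 23 counts in WT. Cldn5, the tight junction claudin of vessels, had 8, 1, 3 and 6 counts in KO, against 42, 25, 8 and 14 counts in WT. Scaled for depth these were 0.445, 0.0510, 0.166 and 0.315 CPM in KO, against 2.99, 1.40, 0.495 and 0.8997 CPM in WT. Cldn5 was the 1 member of 37 whose genotypes did not overlap, where 5.56% of all tested genes did not overlap, 2.85% lower and 2.71% higher in KO. It did not pass the filter on low counts, and in a fit without that filter its log2 fold change was -2.56 ± 0.715 SE (edgeR adjusted p = 0.58). The remaining members, Flt4, Mmrn2, Nos3, Cyyr1 and Emcn, had at most 108 counts in a KO library and at most 159 counts in a WT library, and their r with Clec4g lay between 0.690 for Nos3 and 0.961 for Mmrn2.

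**Figure D3:**
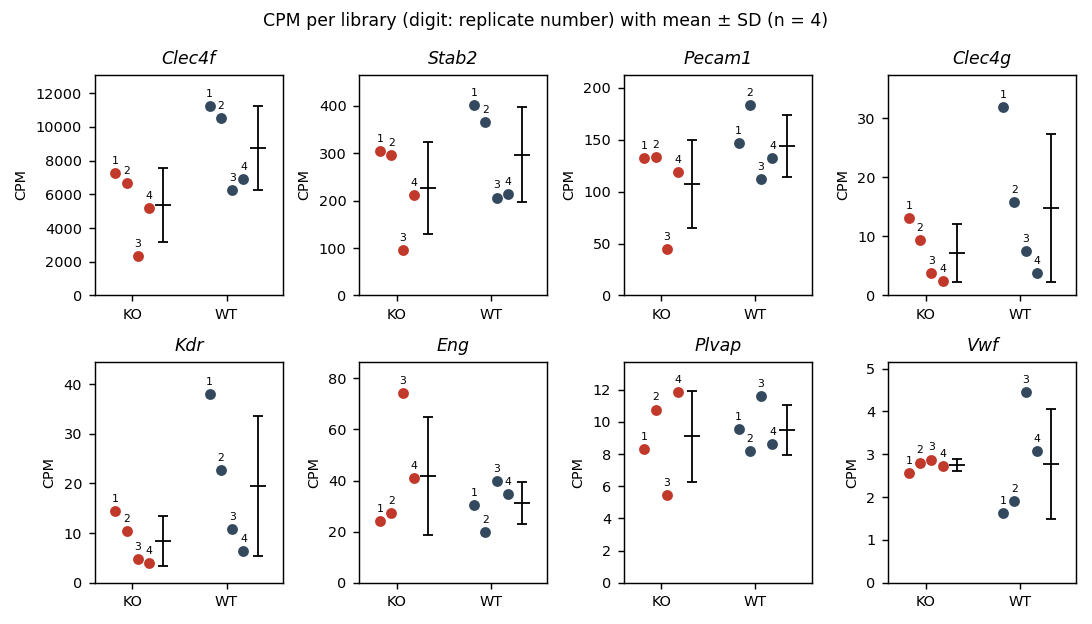
CPM of Clec4f and 7 members in each library, KO in red on the left and WT in blue on the right of each panel, with mean ± SD (n = 4 libraries) and the replicate number above each point. Stab2 and Pecam1 repeat the course of Clec4f with KO 3 lowest, Clec4g and Kdr are higher in libraries 1 and 2 than in 3 and 4, and Eng is highest in KO 3.

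Most members had a negative log2 fold change of KO against WT, but no member was called by the genotype comparison alone. Of 33 members that passed the filter on low counts, 28 had a negative and 5 a positive log2 fold change, with a median of -0.81, while 50.4% of all tested genes were negative with a median of -0.0028. Kupffer identity genes were negative in 12 of 13 (median -0.57) and hepatocyte genes in 12 of 12 (median -0.72). Melanoma genes were negative in 0 of 10 (median 1.20). Members not tested were Wnt9b, Cyyr1, Cldn5 and Emcn. In edgeR, 0 members passed the adjusted threshold of 0.05, and limma also called 0. DESeq2 called 0 members, where it called 0.391% of all tested genes, 0.202% lower and 0.189% higher in KO. At an unadjusted p under 0.05, edgeR had 2 members, both lower in KO, while 4.56% of all tested genes were lower and 4.23% higher at that level. These 2 were Dnase1l3 (50.6 ± 23.6 CPM in KO and 93.6 ± 27.3 CPM in WT, SD, n = 4 each; log2 fold change -0.89 ± 0.337 SE, edgeR adjusted p = 0.492) and Esam (log2 fold change -1.63 ± 0.631 SE, edgeR adjusted p = 0.492). In bulk RNA, fewer cells of a type and less RNA per cell cannot be told apart. Endothelial cells lack CD45, and the gate was CD45+ Tim-4+. After that gate melanoma genes still summed to up to 12894 CPM (KO 3) and hepatocyte genes to up to 2051.5 CPM (WT 3). Which cells the endothelial transcripts came from was not tested.

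The libraries carry the numbers 1 to 4 in both genotypes. KO was lower than WT in all 4 pairs of equal number for 22 of 37 members. The share of all tested genes that did so was not counted, so this count does not set the members apart. Outside the list, Clec4f and Timd4, the gene of Tim-4, were also lower in all 4 pairs, and Alb, the hepatocyte albumin, in 3. With the replicate number as a block, 14 of 33 tested members were called lower and 0 higher, where 5.01% of all tested genes were called lower and 8.98% higher. Lower calls were not particular to the members, as 6 of 13 Kupffer identity genes were also called lower and 0 higher. Of 12 hepatocyte genes 2 were called lower, and of 12 stellate and fibroblast genes 3. The 14 were Clec4g, Oit3 and Dnase1l3 among the scavenger group, Bmp2 among the ligands, Kdr, Flt1, Tek, Tie1 and Ptprb among the receptors, and Esam, Robo4, Adgrl4, Clec14a and Aqp1 among general endothelial genes. No member of the large-vessel group was called, but only 3 of its 5 members were tested, as Cldn5 and Emcn did not pass the filter. Blocked log2 fold changes of the 14 ran from -1.55 for Esam to -0.82 for Bmp2. That of Kdr was -1.12 ± 0.149 SE (edgeR adjusted p = 0.0254) and that of Clec4g was -0.93 ± 0.164 SE (edgeR adjusted p = 0.0254). Stab2 was not called with the block (-0.45 ± 0.168 SE, edgeR adjusted p = 0.106), and Pecam1 was not either (-0.51 ± 0.192 SE, edgeR adjusted p = 0.107). The pairing was read from the data and not from the labels, and the data did not single out pairs of equal number. The 14 calls became 1, 0, 0 and 11 when pair 1, 2, 3 or 4 was left out. Over all tested genes, lower calls went from 795 to 164, 1, 1 and 754 in the same fits.

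**Figure D4:**
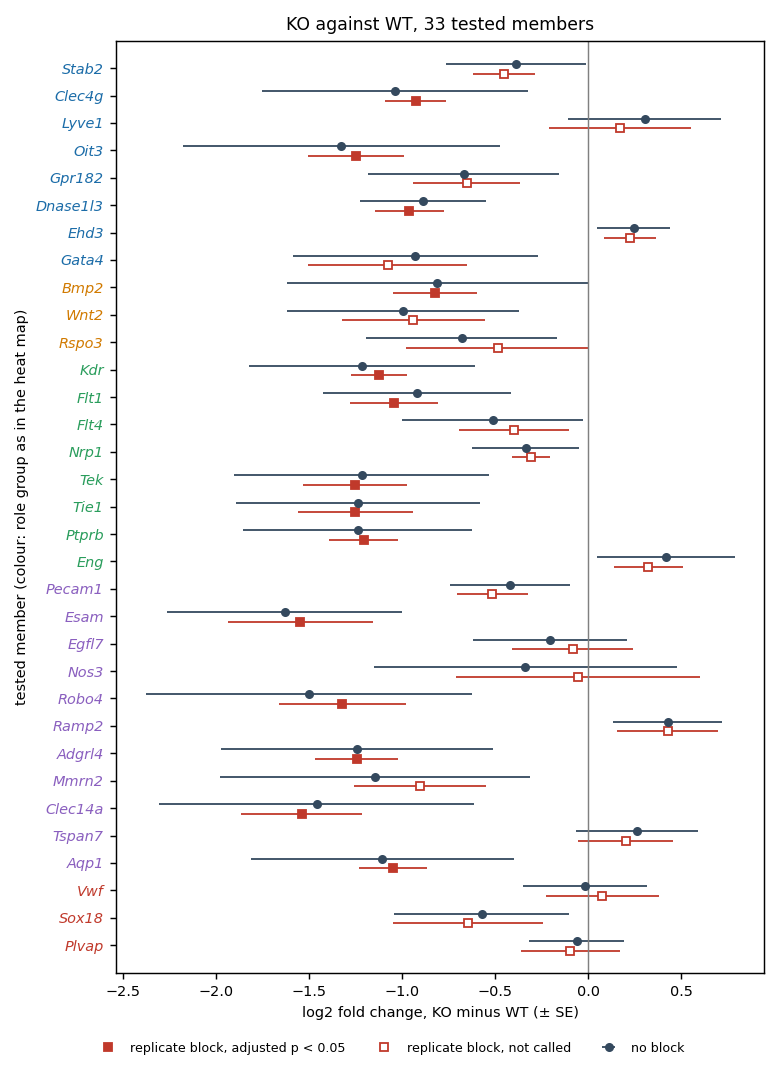
Log2 fold change of KO against WT ± SE for the 33 tested members, without the block (dark points) and with the replicate block (red squares, filled where the adjusted p was under 0.05). The 14 filled squares all lie left of 0. Eng, Ehd3, Ramp2, Tspan7 and Lyve1 lie right of 0 in both fits, and Vwf does with the block only (0.0758).

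WT 1 and the melanoma content moved with these differences. 26 of 37 members had their highest level in WT 1, against 17.5% of all tested genes, and so had 13 of the 14 called with the block. The lowest level was in KO 3 for 15 members and in KO 4 for 14. Without WT 1 the median log2 fold change of the tested members was -0.34, and without KO 1 it was -1.26. With the melanoma level as a covariate in the fit, the median was -0.04 and 17 of 33 members were negative. With that covariate and the block together it was -0.79, and 0 members were called, where 0.0126% of all tested genes were called, all of them lower in KO. Hepatocyte genes, a sign of another liver cell type, summed to 294, 187, 778 and 779 CPM in KO, against 582, 453, 2051 and 664 CPM in WT, with an r of -0.328 between their sum and Clec4g. Their part in the differences was not tested.

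Stab2 was set against Clec4f within each library, which removes the library's scale. There were 41.9, 44.2, 40.9 and 40.8 Stab2 counts per 1000 Clec4f counts in KO 1 to 4, against 35.6, 34.8, 32.97 and 31.0 in WT 1 to 4. The ratio was thus higher in every KO library than in any WT library, although the highest library was 4.15-fold above the lowest for Stab2 and 4.76-fold for Clec4f. The share of all tested genes whose ratio to Clec4f did not overlap was not counted. Means were 41.9 ± 1.57 in KO and 33.6 ± 2.05 in WT (SD, n = 4 each), a log2 difference of 0.32. By exact permutation, 2-sided, p was 0.0286, the lowest that 4 against 4 can give, and 0.0571 after adjustment over the 2 ratios tested, so it missed the threshold. Within pairs of equal number, exact sign flips gave p = 0.125, the smallest possible with 4 pairs. Clec4f itself had 7270, 6688, 2362 and 5184 CPM in KO, against 11254, 10511, 6263 and 6921 CPM in WT. It was not called by the genotype comparison alone (log2 fold change -0.70 ± 0.408 SE, edgeR adjusted p = 0.492). Only the block called it (blocked log2 fold change -0.77 ± 0.201 SE, edgeR adjusted p = 0.0435). Pecam1 per 1000 Clec4f counts was 18.2, 19.9, 19.0 and 22.9 in KO, against 13.0, 17.4, 17.96 and 19.1 in WT. Clec4g per 1000 Clec4f counts was 1.80, 1.40, 1.64 and 0.476 in KO, against 2.83, 1.51, 1.21 and 0.548 in WT, and the genotypes overlapped in both of these ratios. Log2 differences of ratios to Clec4f had both signs. They were positive for Pecam1 (0.254), Vwf (0.875) and Eng (1.09). Clec4g (-0.131), Dnase1l3 (-0.185), Kdr (-0.33) and Oit3 (-0.49) had negative ones.

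Sinusoidal and large-vessel transcripts were compared by the ratio of Vwf to Stab2. Neither gene stands for its class, as Stab2 followed Clec4f (r 0.965) more than Clec4g (r 0.761) and large-vessel genes had no common course. Vwf counts per 1000 Stab2 counts were 8.41, 9.51, 29.8 and 12.9 in KO 1 to 4, against 4.09, 5.22, 21.6 and 14.4 in WT 1 to 4. In both genotypes libraries 3 and 4 were above 1 and 2. Means were 15.2 ± 9.95 in KO and 11.3 ± 8.25 in WT (SD, n = 4 each), a log2 difference of 0.55 that was within the spread between libraries (exact 2-sided permutation p = 0.486, adjusted 0.486). Leaving out each library in turn gave log2 differences from 0.164 to 0.973.

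**Figure D5:**
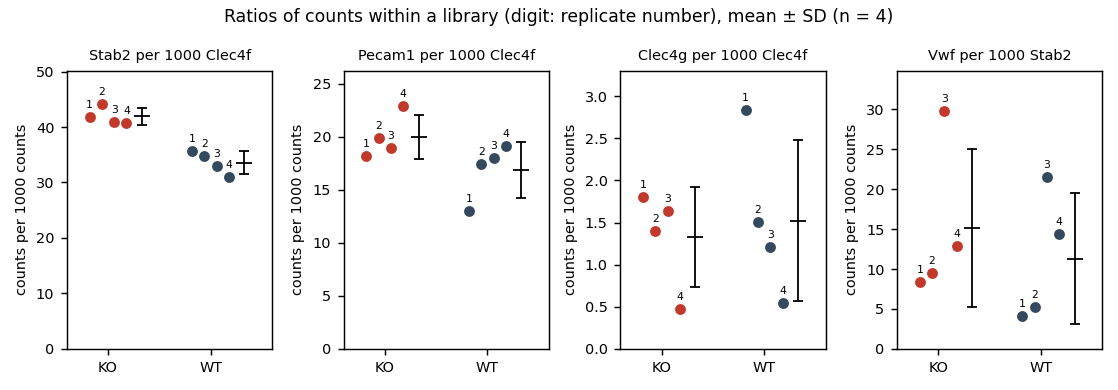
Ratios of counts within each library, as counts per 1000 counts of the second gene, KO in red on the left and WT in blue on the right, with mean ± SD (n = 4). Stab2 per 1000 Clec4f runs from 40.8 to 44.2 in KO and from 31.0 to 35.6 in WT, while the other 3 ratios overlap between genotypes.

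Over the 8 libraries, 4 relations of Stab2 were tested by enumerating every pairing of the libraries. These p-values treat the 8 libraries as freely exchangeable, without regard to genotype or replicate number. With Clec4f, Pearson's r was 0.965 (permutation p = 0.000645, adjusted 0.00129) and Spearman's rho 0.952 (permutation p = 0.00114, adjusted 0.00228), and r was 0.815 without KO 3 and WT 1. With the melanoma sum, r was -0.868 (permutation p = 0.000446, adjusted 0.00129) and rho -0.952 (permutation p = 0.00114, adjusted 0.00228), and r was -0.952 without WT 1 and WT 2. Stab2 and Clec4f were thus both lower in libraries with more melanoma RNA, and all of these levels share the library total. Vwf gave r -0.580 (permutation p = 0.134, adjusted 0.179) and rho -0.833 (permutation p = 0.0154, adjusted 0.0205), and r was again -0.580 without WT 1 and WT 3. Alb, the hepatocyte albumin, gave r -0.376 (permutation p = 0.341, adjusted 0.341) and rho -0.738 (permutation p = 0.0458, adjusted 0.0458), and r was -0.444 without KO 2 and WT 3. For Vwf and Alb the rank measure passed the threshold and Pearson's r did not.

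Other endothelial lists, named here from outside the 37, gave mixed values. Of 14 further arterial, venous and large-vessel genes, 8 were tested. Without the block edgeR called 0 and DESeq2 called 1, Efnb2, as lower (DESeq2 adjusted p = 0.0484), where DESeq2 called 0.202% of all tested genes lower. Blocked calls over the whole table fell from 1425 higher and 795 lower to 1 and 1 without pair 2. Without pair 3 they fell to 0 and 1. With the block, which called 5.01% of all tested genes lower and 8.98% higher, edgeR called 2, both lower. These were Efnb2, an arterial ephrin ligand (2.33 ± 0.911 CPM in KO and 5.35 ± 0.743 CPM in WT, SD, n = 4 each; blocked log2 fold change -1.25 ± 0.298 SE, edgeR adjusted p = 0.0363), and Cd34, a sialomucin of vessels and progenitors (5.07 ± 1.76 CPM in KO and 10.3 ± 3.11 CPM in WT; blocked log2 fold change -1.04 ± 0.209 SE, edgeR adjusted p = 0.0275). Efnb2 had 2.28, 2.09, 1.38 and 3.57 CPM in KO, against 5.84, 4.44, 6.06 and 5.08 CPM in WT. For Efnb2 and Cd34 every KO library was below every WT library, as was so for 2.85% of all tested genes. Of 7 genes shared by Kupffer cells and sinusoidal endothelium, only Cdh5, the VE-cadherin, was called with the block, at 392.3 ± 185 CPM in KO and 620.5 ± 257 CPM in WT (blocked log2 fold change -0.73 ± 0.175 SE, edgeR adjusted p = 0.036). Of 4 lymphatic genes 3 were tested and 0 called with the block; the more abundant ones were Pdpn at 3.06 FPKM and Prox1 at 0.465 FPKM.

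Ligands and regulators of endothelial cells were called only with the block, in both directions. Those calls carry the limit given above, that most blocked calls over the whole table were lost without pair 2 or 3. Of 24 such genes 19 were tested, and without the block edgeR and DESeq2 called 0. With the block 4 were higher (Vegfb, Angpt2, Ets1 and Meis2) and 5 lower (Acvrl1, Id1, Id3, Fli1 and Klf2), where 8.98% of all tested genes were higher and 5.01% lower. Id1, a target of BMP signalling, had 74.3, 40.8, 75.0 and 36.3 CPM in KO 1 to 4, against 117, 80.6, 107 and 87.8 CPM in WT 1 to 4, and the genotypes did not overlap (blocked log2 fold change -0.85 ± 0.132 SE, edgeR adjusted p = 0.0254). KO was lower without overlap in 2.85% of all tested genes. Ets1, a transcription factor of endothelium and lymphocytes, had 180, 188, 396 and 205 CPM in KO, against 87.5, 101, 196 and 170 CPM in WT (blocked log2 fold change 0.81 ± 0.143 SE, edgeR adjusted p = 0.0254). In both genotypes its highest library was the one numbered 3. Vegfb, a ligand of Flt1, had 11.4, 13.1, 33.6 and 20.6 CPM in KO, against 7.54, 6.68, 20.6 and 14.6 CPM in WT (blocked log2 fold change 0.69 ± 0.130 SE, edgeR adjusted p = 0.0257). All 10 melanoma genes were also higher in KO with the block, and their part in these differences was not tested.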

How the data were processed

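Sorted Kupffer cells gave 8 bulk RNA-seq libraries, 4 KO and 4 WT, and the single comparison was KO against WT. Raw counts of each gene stand in the deposited table, per the file headers, beside FPKM values and other numbers (exonic sizes and positions) by the authors. HTSeq 0.6.1 and mm10 are named in the submitters' processing notes. Not given in the sources used here are the aligner, the annotation and the strand setting. The deposited FPKM matched counts scaled by exonic size and column total within 0.015 for 100% of genes. Of 52073 gene identifiers shared with GENCODE M21 only 1472 had the same position, so deposited coordinates are not printed. Column letters K and C were read as KO and as the WT control.

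The 37 members, the lists and the tests were chosen with earlier results of these data known. Counts were kept by filterByExpr (15870 genes), scaled by TMM and tested in edgeR 4.0.16 (R 4.3.3) by the 2-sided quasi-likelihood F test with p-values adjusted by Benjamini-Hochberg across the whole tested table, at 0.05. The biological coefficient of variation was 33.3%, or 18% with the replicate block. CPM uses TMM-scaled sizes, and log2 CPM for correlations a prior count of 2. Alternatives were DESeq2 1.42.0, limma 3.58.1 on log2(FPKM + 1) or log2(FPKM + 0.1), other scaling, no filter, a melanoma covariate, the block, and each library left out. Members were named if called, with the block up to 12 by smallest p, or if among the 3 highest by mean FPKM in their role group, and up to 3 per other list. Scripts were tested on simulated data.

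Replicate numbers 1 to 4 occur in both genotypes. Libraries of equal number had deviations from their genotype's mean that correlated at 0.561, 0.544, 0.660 and 0.290, each above 0.1. On that ground the number was used as a block in an alternative fit, although the labels do not state pairs. Some libraries of unequal number also correlated above 0.1. The values were 0.669 for KO 1 and WT 2, 0.445 for KO 2 and WT 1, 0.557 for KO 3 and WT 4, and 0.309 for KO 4 and WT 3. The check therefore did not single out pairs of equal number. Within a genotype, counts of any 2 libraries differed by more than sampling noise (chi-square per degree of freedom at least 11.0). Upstream windows are from RefSeq tables of GRCm38.p6.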

Additional observations from a re-analysis of the deposited data

Results flagged for a closer look

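In 5 of 80 groups of 4 libraries, the highest or lowest library lay farther from the rest than Dixon's 95% critical value allows, where chance gives about 5%, or 1 in 20 groups. The value is the gap to the nearest library over the whole range. Ehd3 had a value of 0.847 in KO, where KO 3 was high. Pecam1 had 0.839 in KO, where KO 3 was low at 44.8 CPM. Wnt9b had 0.847 in KO, where KO 1 was high with 6 counts. Wnt2 had 0.841 and Egfl7 0.918 in WT, and in both WT 1 was high.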

How the results depend on the processing

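Of 137 values that answer a comparison, 119 kept their direction and their side of the threshold, as did 394 of 425 values of single genes. Over all tested genes, 0 higher and 1 lower became 30 and 32 in DESeq2 and 1425 and 795 with the replicate block. The count of higher genes was 1 with no filter on low counts and 0 to 1 when a library was left out, and the lower count was 2 with the melanoma covariate and the block. With the block but without pair 1, 2, 3 or 4, higher genes numbered 43, 1, 0 and 1475, and lower genes 164, 1, 1 and 754. Members lower in KO numbered 14 with the replicate block, 1 without pair 1 and 11 without pair 4. The median of the members was -0.044 with the melanoma covariate. The log2 difference of Stab2 per Clec4f, 0.321, had an exact p of 0.125 with the replicate block.

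With the melanoma covariate the log2 fold change changed sign for 15 of 33 tested members, Stab2 (0.175), Clec4g (0.236), Oit3 (0.223), Bmp2 (0.698), Nrp1 (0.205), Eng (-0.167), Egfl7 (0.0653), Adgrl4 (0.0158), Aqp1 (0.104), Robo4 (0.198), Mmrn2 (0.606), Flt4 (0.301), Nos3 (0.455), Gpr182 (0.0026) and Tspan7 (-0.118). With the block added it did for 4, Nrp1 (0.00495), Egfl7 (0.0114), Nos3 (1.28) and Lyve1 (-0.307). It also did for Egfl7 in limma with a pseudocount of 0.1 (0.00713), for Plvap with library totals (0.0203) and for Vwf with the replicate block (0.0758). With 1 library left out the value ran from -0.0155 (without KO 3) to 0.589 for Eng, from -0.427 to 0.346 (without WT 1) for Egfl7, and from -0.222 to 0.12 (without KO 3; 0.0509 without WT 3) for Plvap. The cause was not tested. The block changed no other call among the members. Counts were under 20 in every KO library for Wnt2, Wnt9b, Rspo3, Cldn5, Cyyr1 and Nos3, which limits their precision.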

Other observations

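Genes outside the 37 whose course was most like the mean of the scavenger and sinusoidal group, by Pearson's r of log2 CPM over 8 libraries, were Atp6v1g2 (0.982), Adgrf5 (0.980), Pkp4 (0.977), Hprt (0.975), Aph1b (0.973), Gm7592, Ushbp1, Cables1 and Paip1 (0.970 each) and Chmp1b (0.969). Adgrf5, an adhesion receptor known from endothelium, averaged 1.01 FPKM, and Hprt, an enzyme of purine salvage, averaged 139 FPKM. In all, 386 tested genes had an r of at least 0.9 with that mean, which includes both Stab2 and Clec4g.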
